A study of Mus musculus with 12 samples.

Results

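The genes described here encode interleukin-7 and the wider cytokine system that shares the common gamma chain. There are 10 of them, out of 55335 genes in both count tables: the cytokine genes Il7, Il15 and Tslp, and the receptor genes Il7r, Il15ra, Il2rg, Il2ra, Il2rb, Il4ra and Il21r. The set was chosen by name around Il7, which was selected on its higher level in midostaurin-treated tumors than in control tumors. The tumor drug difference of Il7, and every value built on it (its difference of responses, its rank in treated tumors and the genes most like it), is therefore given as a description.

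RNA was sequenced from CT26, a mouse colorectal cancer cell line with the genotype label WT, and from tumors that CT26 formed under the skin of mice. Cultured cells received the solvent DMSO or 1 µM midostaurin, an inhibitor of several kinases, for 48 h. Tumors received vehicle or midostaurin at 40 mg/kg, from day 7 after inoculation and for 2 weeks. Each of the 4 groups holds 3 libraries, made from poly(A)-selected RNA, and all groups share the same CT26 line. The strain, age and sex of the mice are not given in the sources used here, nor is it stated that each library had its own culture or animal. The p-values below therefore measure only how far these libraries spread, which may be technical.

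Cytokines of this family signal through receptors that pair a private chain with the common gamma chain, the product of Il2rg. Interleukin-7 is made mainly by stromal and epithelial cells and is read by lymphocytes through the product of Il7r, and interleukin-15, presented in trans by its own alpha chain, sustains NK cells and memory T cells. Tslp encodes a related epithelial cytokine that also uses the product of Il7r, paired with a chain of its own, the product of Crlf2, in place of the common gamma chain. Engaged receptors of interleukin-7 and interleukin-15 act through JAK1, JAK3 and STAT5, and in tumors these cytokines are known for supporting the lymphocytes that infiltrate them.

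The libraries of cells held 34787389 to 38144039 counts each, and those of tumors 33399701 to 48109497. Some libraries stand apart. Both cell libraries numbered 1 differed from the other 4 by at least 207 times the variance of sampling noise, against at most 16.7 times among those 4. Control tumor 2 held 726 CPM (each count relative to the total of its library, scaled by TMM over all 12 libraries) of summed keratinocyte markers against 1.37 to 1.59 in the other tumors. Midostaurin tumor 3 held 658 CPM of summed neutrophil markers against 12.9 to 28.6. The treated tumors are numbered 2, 3 and 4 as in the count table. Of 5 colon epithelial markers, Krt18 measured 22.7 to 29.6 CPM in cultured cells, while Epcam had 0 counts in all 6 cell libraries.

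The cultured cancer cells transcribed 3 of the 10 genes: Il7, Il15 and Il4ra each measured at least 1 CPM in each of the 6 cell libraries. Another 3, Il7r, Il2ra and Il21r, had 0 counts in every cell library and at least 31 counts in every tumor, so they were detected only in tumors. The other 4 lay between. Il2rg reached at most 21 counts in a cell library, Il2rb 17 and Il15ra 8, against 1539, 890 and 290 or more in every tumor, and Tslp was close to 0 throughout. A count of 0 leaves room for up to 3 counts per library, a limit that covers counting error only. In bulk tumors, fewer cells of a type and less RNA per cell cannot be told apart.

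**Figure D1:**
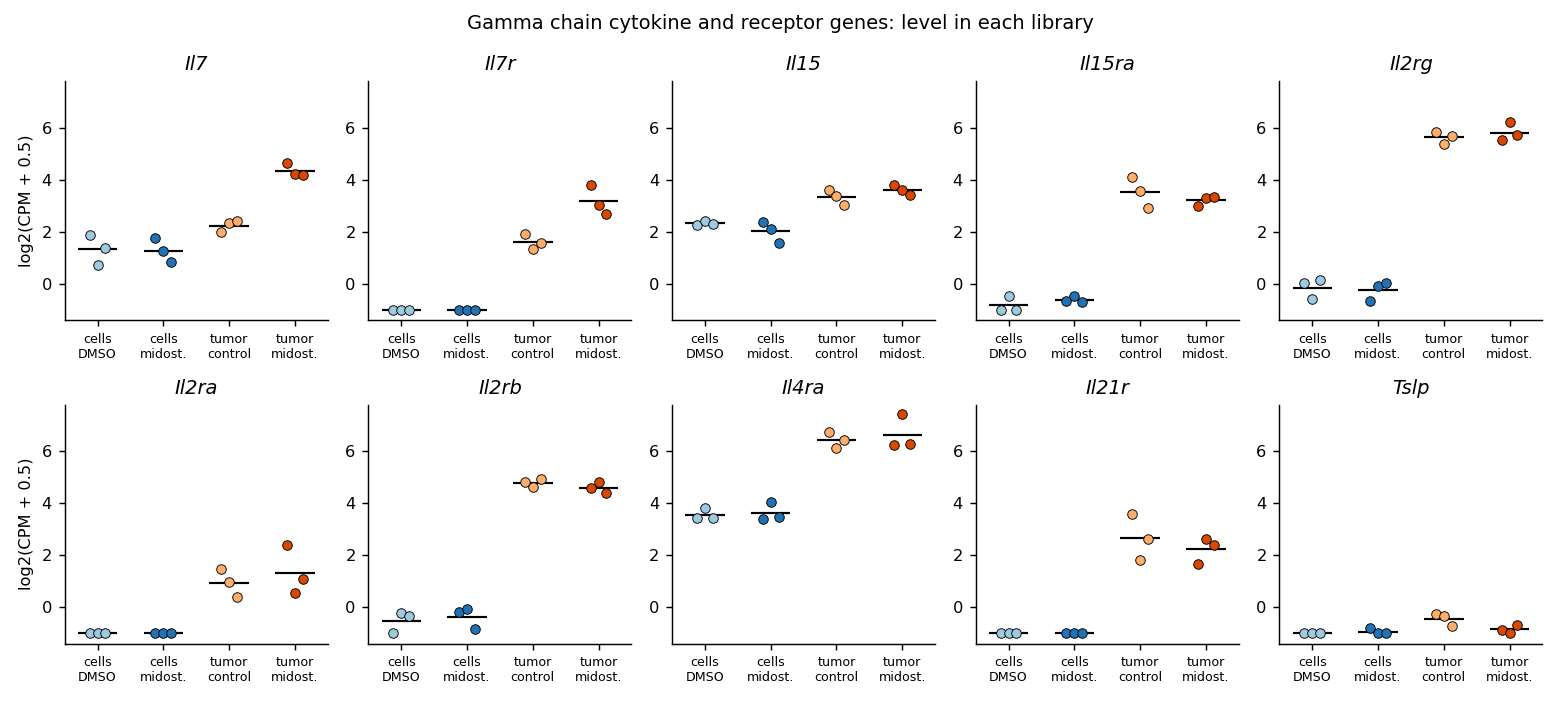
Level of each of the 10 genes in all 12 libraries, as log2(CPM + 0.5), for DMSO cells, midostaurin cells, control tumors and midostaurin tumors. Points are libraries and horizontal lines are means of 3. Il7, Il15 and Il4ra lie above 0 on this scale in every cell library, and Il7r, Il2ra and Il21r lie at the bottom of the scale in all 6.

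Among the cytokines, Il7 (ENSMUSG00000040329, GRCm38/mm10 chromosome 3, 7569994 to 7613760, minus strand) was made by the cultured cells at a low level. DMSO cells gave 3.21, 1.14 and 2.08 CPM and midostaurin cells 2.86, 1.89 and 1.27 CPM, for libraries 1, 2 and 3. These groups overlapped, and in each the library numbered 1 was highest. The drug difference in cells was -0.10 ± 0.47 on the log2 scale (SE, with a 95% interval of -1.24 to 1.05 and an edgeR adjusted p of 1), an interval wide enough to hold changes of over 1 log2 unit either way.

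The libraries numbered 1 also differed from the rest in an interferon-related gene, chosen for mention after its values were seen. Irf7, an interferon regulatory factor, measured 38.0 and 37.7 CPM in the DMSO and midostaurin libraries numbered 1 and 1.74 to 3.53 CPM in the other 4. The part of that difference in the level of Il7 was not tested.

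In tumors, Il7 measured 3.47, 4.48 and 4.81 CPM in controls 1, 2 and 3, and 24.4, 18.3 and 17.7 CPM in midostaurin tumors 2, 3 and 4. The lowest treated tumor lay far above the highest control. The means were 4.25 ± 0.697 and 20.1 ± 3.71 CPM (SD, n = 3 each), a 4.74-fold difference or 2.24 ± 0.20 on the log2 scale (SE). With any 1 tumor left out the difference was 2.07 to 2.35. The drug difference in tumors exceeded that in cells by 2.33 ± 0.52 on the log2 scale. These values describe why Il7 was selected and are not used as evidence.

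Control tumors held more Il7 than DMSO cells in each library, by 1.98-fold (log2 0.99 ± 0.37). That comparison gave an edgeR adjusted p of 0.0513 and a DESeq2 adjusted p of 0.0157, and edgeR called it without DMSO library 1 (1.40, adjusted p = 0.0123) or without midostaurin cell library 1 or 3 (adjusted p = 0.0359 and 0.0429). Over all alternatives the adjusted p ran from 0.0123 to 0.151, so the level of Il7 in control tumors was not separated from that in culture under every setting.

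The strand setting of the counting is not given in the sources used here, and Il7 overlaps the antisense gene Gm16685 over 105 exon bases. Gm16685 had 11, 18 and 25 counts in control tumors and 43, 164 and 43 in midostaurin tumors. The corresponding counts of Il7 were 137, 166 and 208, then 958, 588 and 831. The antisense gene was also higher in every treated tumor than in any control. It peaked in midostaurin tumor 3, which was not the highest for Il7. The part of antisense reads in the counts of Il7 was not tested.

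Il15 (ENSMUSG00000031712, chromosome 8, 82331632 to 82403222) was the most evenly expressed cytokine of the set. DMSO cells gave 4.32, 4.76 and 4.44 CPM and midostaurin cells 4.67, 3.85 and 2.49 CPM. Control tumors gave 11.7, 9.96 and 7.66 CPM and midostaurin tumors 13.4, 11.8 and 10.2 CPM. Every tumor lay above every cell library, while the groups with and without drug overlapped in both settings. The rise from DMSO cells to control tumors was 2.17-fold (log2 1.12 ± 0.24, edgeR adjusted p = 0.0034). The drug difference was -0.30 ± 0.26 in cells (95% interval -0.93 to 0.34) and 0.28 ± 0.19 in tumors (-0.18 to 0.73), with edgeR adjusted p of 1 and 0.472.

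Tslp, the epithelial cytokine, was close to absent from these libraries. It had 0 counts in 5 of the 6 cell libraries and 3 in midostaurin cell 1. Control tumors had 13, 11 and 5 counts and midostaurin tumors 2, 0 and 6. It passed no filter on low counts in the main fits and was not tested.

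The private receptor chain of interleukin-7, Il7r (ENSMUSG00000003882, chromosome 15, 9505788 to 9530176, minus strand), was the only receptor of the set whose treated tumors all lay above all controls. Its proximal promoter is shown because it is the receptor that the comparison turns on and the only 1 of the 6 members with a RefSeq promoter entry that held either motif searched. The 160 bases before its RefSeq start (GRCm38.p6, chr15:9529877-9530036, minus strand, printed 5′ to 3′) carry in capitals a match to the STAT-type palindrome TTCNNNGAA, with its first base at position -142 from the start.

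Il7r promoter: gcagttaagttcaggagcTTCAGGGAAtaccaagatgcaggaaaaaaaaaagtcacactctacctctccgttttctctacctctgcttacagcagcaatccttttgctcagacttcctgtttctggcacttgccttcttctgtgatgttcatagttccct

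That motif, searched on both strands in the 250 bases before each start, occurs in 7.02% of 32851 RefSeq promoters. A motif of the interferon-stimulated response element type (GAAA, any 2 bases, GAAA) occurs in 2.98% and in none of the 6 members. A match is a description of letters, not of a bound site. The GENCODE gene span begins further upstream than the RefSeq start, at 9530176, so in that annotation the printed stretch lies inside the gene.

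Il7r had 0 counts in each cell library, with and without drug. In tumors it measured 3.27, 2.05 and 2.47 CPM in controls 1, 2 and 3, and 13.4, 7.58 and 5.99 CPM in midostaurin tumors 2, 3 and 4. The lowest treated tumor thus lay above the highest control. The means were 2.60 ± 0.619 and 8.97 ± 3.87 CPM (SD, n = 3 each), a 3.47-fold difference or 1.79 ± 0.35 on the log2 scale (95% interval 0.96 to 2.62). With edgeR the difference did not pass the threshold after adjustment over all genes (adjusted p = 0.0874), whereas DESeq2 called it (adjusted p = 8.52e-05), and over all alternatives the adjusted p ran up to 0.424. It was 1.38 without midostaurin tumor 2, the lowest value with any 1 tumor left out.

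T cells are among the cells that usually carry Il7r. Midostaurin tumor 2 had the highest Il7r and also the lowest summed T cell markers, at 16.0 CPM over 8 genes, against 19.7 to 35.6 in the other tumors. Ptprc, which encodes the leukocyte antigen CD45, was lowest there too, at 28.7 CPM against 41.9 to 59.7. In midostaurin tumors 3 and 4, Il7r was at 7.58 and 5.99 CPM and summed T cell markers at 35.6 and 28.6 CPM. T cell markers ranged from 19.7 to 31.0 CPM in controls and from 16.0 to 35.6 in treated tumors, and those of NK cells from 12.1 to 18.7 and from 10.4 to 13.5. B cell markers ranged from 0.995 to 2.28 and from 0.585 to 1.34 CPM. Dendritic cell markers, 6 genes, ranged from 6.56 to 13.2 CPM in controls and from 10.2 to 18 in treated tumors, and 5 of the 6 had a log2 difference above 0 (median 0.92). Ccl22, a chemokine of mature dendritic cells, measured 1.32, 0.837 and 0.324 CPM in controls and 2.39, 3.69 and 1.85 in treated tumors, with no overlap (log2 1.68 ± 0.53, edgeR adjusted p = 0.157, DESeq2 0.0334). Zbtb46, the largest part of the sum in control tumors 2 and 3, was also made by cultured cells and had a difference of -0.26 ± 0.22. The 6 fibroblast markers summed to 284 to 1230 CPM in controls and 349 to 707 in treated tumors, and to 359 to 614 in DMSO cells. Among them Dcn, which encodes the matrix proteoglycan decorin, measured 98.2, 89.8 and 41.3 CPM in controls and 103, 218 and 152 in treated tumors, with no overlap (log2 1.05 ± 0.37, edgeR adjusted p = 0.192, DESeq2 0.0228). Col1a1 went the other way (-0.85 ± 0.78), and Pdgfra, Pdgfrb, Lum and Pdpn had differences of 0.11, 0.21, 0.43 and 0.36. All of these overlapped between the groups. Treated tumors all above all controls, as for Dcn and Ccl22, were found for 13.2% of all genes. Summed macrophage markers, 7 genes, were lower in every treated tumor, at 300, 776 and 663 CPM against 867 to 1230. All 7 had a log2 difference below 0, and Adgre1 and Cd68 overlapped between the groups. Of the 7, edgeR called 0 and DESeq2 called 2, C1qc and Mrc1. Treated tumors all below all controls were found for 14% of all genes. Of 4 lymphatic endothelial markers, Lyve1, which macrophages can also express, was lower in every treated tumor, at 0.382, 2.20 and 0.956 CPM against 40.7, 6.07 and 6.66 (edgeR adjusted p = 0.115, DESeq2 0.00576). Flt4 overlapped between the groups, and Prox1 and Ccl21a were at or near 0. The part of these cell types in the levels of Il7 and Il7r was not tested.

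**Figure D2:**
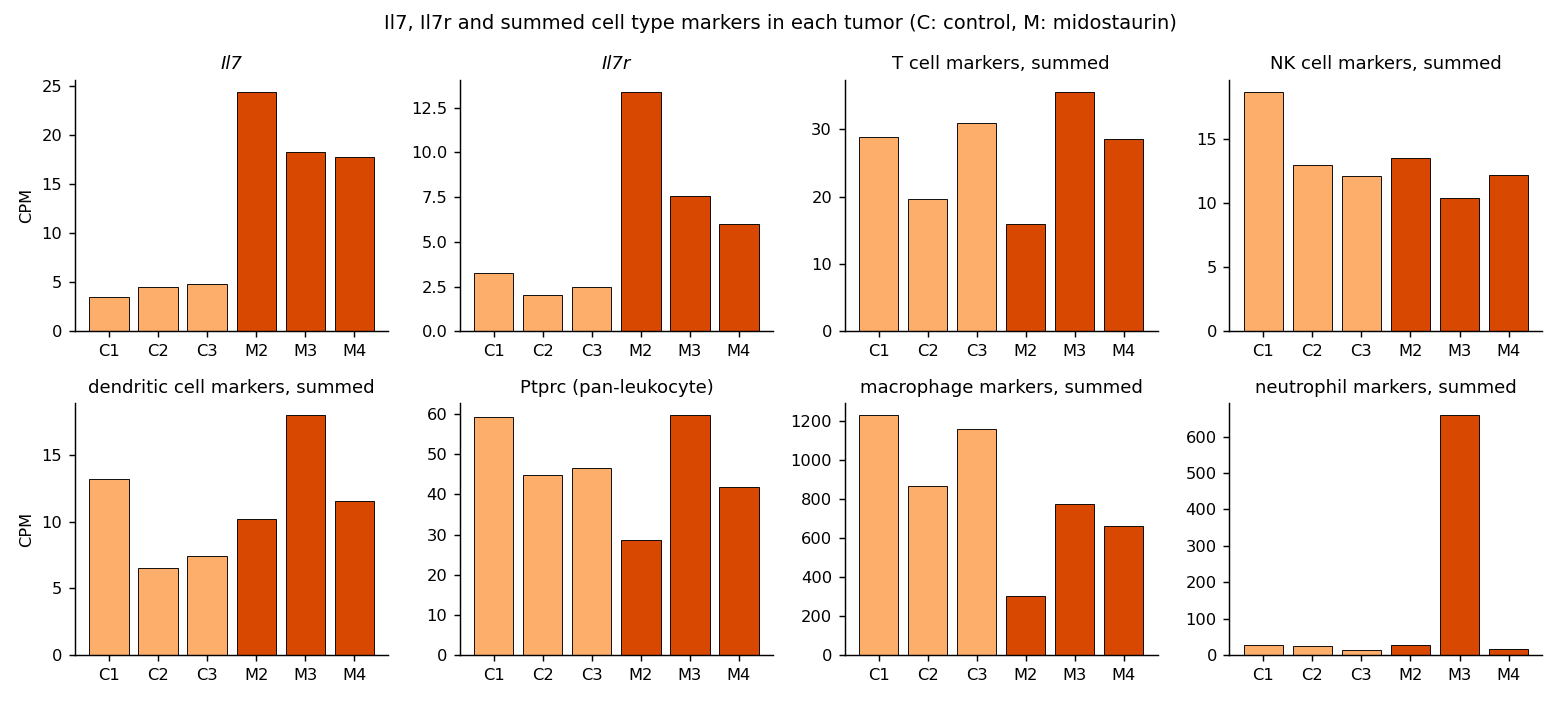
CPM of Il7, Il7r and Ptprc and summed CPM of marker genes of 5 cell types in each tumor, with control tumors C1 to C3 in light and midostaurin tumors M2 to M4 in dark orange; each panel has its own scale from 0. Il7 and Il7r are highest in M2, at 24.4 and 13.4 CPM, where summed T cell markers (16.0 CPM) and Ptprc (28.7 CPM) are lowest. In M3 and M4, Il7r is at 7.58 and 5.99 CPM and summed T cell markers at 35.6 and 28.6 CPM. The part of these cells in Il7 and Il7r was not tested.

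The common gamma chain gene Il2rg (ENSMUSG00000031304, chromosome X, 101264378 to 101268255, minus strand) was far higher in tumors than in culture. Cell libraries held 0.129 to 0.598 CPM, with or without drug. Control tumors gave 56.8, 41.5 and 50.6 CPM and midostaurin tumors 45.4, 73.5 and 52.1 CPM. Il2rg rose 117-fold from DMSO cells to control tumors (log2 6.87 ± 0.47, edgeR adjusted p = 6.45e-06). With drug the tumors overlapped with controls, at 0.20 ± 0.19 (95% interval -0.26 to 0.66, edgeR adjusted p = 0.604), a difference that became -0.01 without midostaurin tumor 3. A second annotated gene, Gm20489, shares 728 exon bases with Il2rg on the same strand and had 0 counts in all 12 libraries.

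Il2rb, the beta chain that interleukin-2 and interleukin-15 share, followed the same course. It had 0 to 17 counts in the cell libraries, and 28.1, 24.0 and 30.5 CPM in control tumors against 23.4, 28.2 and 20.5 CPM in midostaurin tumors. Tumor groups overlapped. The rise from DMSO cells to control tumors was 130-fold (log2 7.02 ± 0.72, edgeR adjusted p = 5.1e-05), and the drug difference in tumors was -0.19 ± 0.15 (95% interval -0.55 to 0.16, edgeR adjusted p = 0.509).

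Il15ra encodes the alpha chain that presents interleukin-15. It had 0, 8 and 0 counts in DMSO cells and 5, 8 and 4 in midostaurin cells. Control tumors gave 16.8, 11.5 and 7.08 CPM and midostaurin tumors 7.38, 9.28 and 9.63 CPM, so the treated values fell inside the range of the controls. Il15ra rose 157-fold from DMSO cells to control tumors (log2 7.29 ± 0.83, edgeR adjusted p = 8.75e-05), a fold that rests on 8 counts in 1 cell library: without DMSO library 2 the group had 0 counts, and the fit then gave no usable fold. The drug difference in tumors was -0.42 ± 0.30 (95% interval -1.14 to 0.30, edgeR adjusted p = 0.485).

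Il2ra, the high-affinity chain of the interleukin-2 receptor and a gene of regulatory and activated T cells, had 0 counts in every cell library. It gave 2.26, 1.46 and 0.833 CPM in control tumors and 4.73, 0.963 and 1.61 CPM in midostaurin tumors. Midostaurin tumor 2 alone lay above the controls. The tumor drug difference was 0.70 ± 0.64 (95% interval -0.82 to 2.23, edgeR adjusted p = 0.588) and turned to -0.23 without midostaurin tumor 2.

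Il21r, the receptor of interleukin-21, also had 0 counts in all cell libraries. Its levels were 11.5, 3.05 and 5.76 CPM in control tumors and 2.72, 5.68 and 4.72 CPM in midostaurin tumors, with overlap between the groups. The difference was -0.63 ± 0.50 (95% interval -1.81 to 0.55, edgeR adjusted p = 0.524), and was 0.00 in the fit that lay nearest to no difference when 1 tumor was left out. Taking 3 counts per library as the limit in cells, control tumors held at least 32.1-fold more Il7r, at least 18.7-fold more Il2ra and at least 83.8-fold more Il21r than DMSO cells. Their edgeR adjusted p in that comparison was 0.000154, 0.00217 and 0.000356.

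Il4ra, the chain that binds interleukin-4 and interleukin-13, was the receptor that cancer cells made themselves. DMSO cells gave 10.3, 13.8 and 10.4 CPM and midostaurin cells 10.0, 16.3 and 10.7 CPM, with overlap and a difference of 0.10 ± 0.24 (95% interval -0.49 to 0.68, edgeR adjusted p = 1). Control tumors gave 107, 69.6 and 85.6 CPM and midostaurin tumors 74.8, 173 and 76.7 CPM. Every tumor exceeded every cell library, and midostaurin tumor 3 stood alone at the top. Il4ra rose 7.59-fold from DMSO cells to control tumors (log2 2.92 ± 0.35, edgeR adjusted p = 0.000122). The tumor drug difference was 0.31 ± 0.34 (95% interval -0.50 to 1.12, edgeR adjusted p = 0.657) and turned to -0.19 without midostaurin tumor 3.

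**Figure D3:**
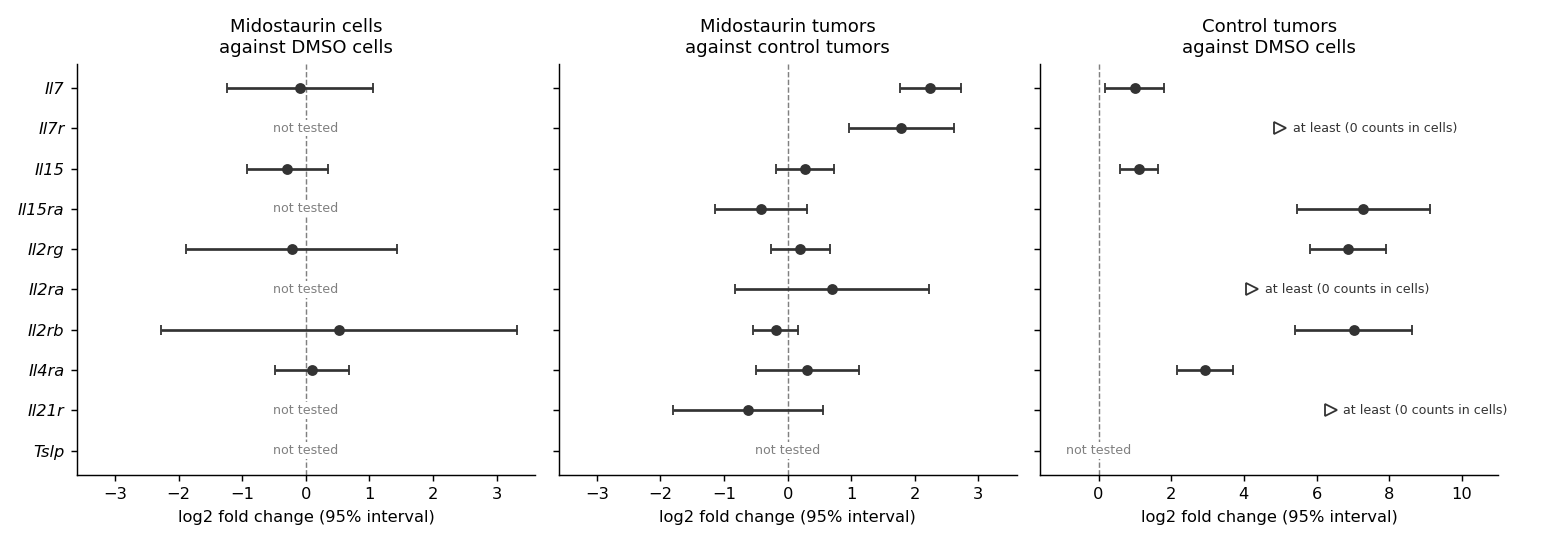
Log2 fold changes with 95% intervals from edgeR in 3 comparisons, with the dashed line at 0; open triangles are lower bounds for genes at 0 counts in DMSO cells. All 5 intervals in cells cross 0, only those of Il7 and Il7r lie above 0 between tumor groups, and all 9 genes tested lie above 0 between control tumors and DMSO cells.

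Counted over the set, the drug called no gene in cells. Of 10 genes, 5 passed the filter on low counts there and 0 were called by edgeR, with 0 at an unadjusted p under 0.05 and 0 by DESeq2, against 0% of all 14538 genes tested. At an unadjusted p under 0.05, 75 genes of that total passed (0.516%), and DESeq2 called 2, or 0.0138% of those it gave an adjusted p. In tumors 9 were tested and Il7, the gene selected on this contrast, was the only one called by edgeR, beside 0.0435% of 16094 genes, a count that was 0 without any 1 tumor. DESeq2 called Il7 and Il7r, beside 9.84% of all genes. All 3 treated tumors lay above all 3 controls for 2 of the 9, again Il7 and Il7r, as they did for 13.2% of all genes, and below for 0, against 14% of all genes. The other 7 overlapped. The median log2 drug difference in tumors was 0.28 over the 9 genes and -0.01 over all genes.

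Between control tumors and DMSO cells, 9 genes were tested and all 9 had a difference above 0. By edgeR 8 were called higher, all except Il7 (adjusted p = 0.0513). Of 16965 genes, 24.5% were called higher in tumors and 44.2% in either direction. DESeq2 called 9, beside 48.4% of all genes. The median log2 difference was 7.02, or 5.00 with the 3 genes at 0 in cells set to their lower bound, against 0.04 over all genes. Growth in the animal and the separate experiments cannot be told apart in this comparison. Leukocyte genes moved with it. T cell markers summed to 19.7 to 31.0 CPM in control tumors and to at most 0.0854 CPM in DMSO cells, where 7 of 8 were at 0 in every library. All 5 NK cell markers and Ptprc were at 0 in DMSO cells. The part of infiltrating cells in the rise of each gene was not tested.

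A drug difference that itself differed from tumors to cells was called for 0 of the 9 genes by edgeR, beside 0.00589% of all genes. Il7 alone had an unadjusted p under 0.05, as did 6.08% of all genes, and Il7 alone was called by DESeq2, beside 0.61% of all genes. Its value contains the tumor difference it was selected on, so nothing is read from these counts. For Il7r, Il2ra and Il21r the fit could not estimate it, since they had 0 counts in cells.

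Per length of exon, the common gamma chain was the most abundant transcript of the set in control tumors. Il2rg measured 20.8 ± 3.22 CPM per kb (SD, n = 3), then Il4ra 14.6 ± 3.12, Il2rb 6.42 ± 0.765, Il15 4.33 ± 0.905, Il15ra 2.65 ± 1.10 and Il21r 2.04 ± 1.30. The interleukin-7 pair was scarce, with Il7 at 0.751 ± 0.123 and Il7r at 0.557 ± 0.133 CPM per kb, above Il2ra at 0.265 ± 0.125 and Tslp at 0.186 ± 0.0866. Neighbours in that order overlapped in range for Il2rg and Il4ra, Il15 and Il15ra, Il15ra and Il21r, Il7 and Il7r, and Il2ra and Tslp.

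In midostaurin tumors Il7 stood at 3.55 ± 0.656 CPM per kb and so moved from rank 7 to rank 5. Its range, 3.12 to 4.30, lay above those of Il15ra, Il7r and Il21r and below that of Il15. This separation holds for merged exon length only. With the longest transcript as length, the means of Il7 and Il15ra were closer, at 4.14 and 3.78 CPM per kb. Il7r stood at 1.92 ± 0.831 and overlapped Il15ra at 1.97 ± 0.273. In DMSO cells the order was Il15 at 1.99, Il4ra at 1.92 and Il7 at 0.378 CPM per kb, with Il15 and Il4ra overlapping.

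**Figure D4:**
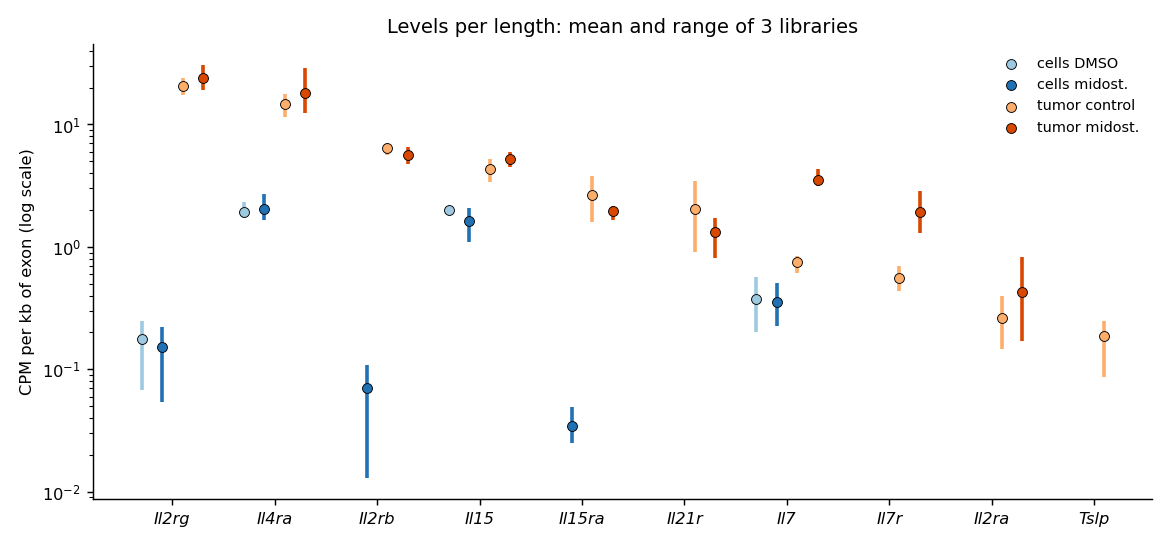
Mean and range of 3 libraries for each gene and group, in CPM per kb of merged exon on a log scale, ordered by the level in control tumors; groups with a library at 0 counts are not drawn. Il2rg and Il4ra lead in tumors, and Il7 stands at 0.751 CPM per kb in control and 3.55 in midostaurin tumors.

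Other ligands of the family were nearly undetected. Il9 and Il21 had 0 counts in all 12 libraries, Il2 had 6 counts and Il4 had 4, both in control tumor 1 alone, and Il13 had 3 in midostaurin tumor 4. None of the 5 could be tested, so Il2ra, Il4ra and Il21r were measured in tumors where Il2, Il4, Il13 and Il21 had 0 to 6 counts.

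Among 4 further receptor chains, 3 were tested. Crlf2, the partner of Il7r in the Tslp receptor, was already expressed by DMSO cells and rose from 19.8 to 35.6 CPM in control tumors (log2 0.85 ± 0.10, edgeR adjusted p = 0.000123). Il13ra1, the partner of Il4ra for interleukin-13, rose from 0.297 to 21.6 CPM (log2 6.19 ± 0.81, edgeR adjusted p = 0.000208). With drug, none of the 3 was called in tumors by edgeR or DESeq2, or passed an unadjusted p of 0.05. Il13ra2, a decoy receptor of interleukin-13, measured 1.45, 0.81 and 0.231 CPM in controls and 1.17, 3.23 and 0.956 in treated tumors (log2 1.11 ± 0.72, edgeR adjusted p = 0.438), and its difference was 0.38 without midostaurin tumor 3. Il13ra1 measured 22.6, 26.5 and 15.6 CPM in controls and 20.3, 57.2 and 24.2 in treated tumors, with the same high library, midostaurin tumor 3, as Il13ra2 and Il4ra, and its difference of 0.65 ± 0.40 became 0.06 without it.

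Of 9 JAK and STAT genes, all tested, 4 were called higher in control tumors than in DMSO cells and 0 lower. Of all 16965 genes, 4164 (24.5%) were called higher and 3337 lower. Jak1 and Jak2 had differences below 0, at -0.13 ± 0.11 and -0.44 ± 0.20. Jak2 was lower in every control tumor than in any DMSO library (edgeR adjusted p = 0.1). Jak3, the kinase that binds the common gamma chain, rose from 49.5 to 147 CPM (log2 1.57 ± 0.25, edgeR adjusted p = 0.000611). Smaller rises were called for Stat5b, which carries signals of the common gamma chain (0.49 ± 0.15, adjusted p = 0.0263), and for Stat6, the interleukin-4 signal carrier (0.29 ± 0.11, adjusted p = 0.0475). The call of Stat5b was lost without DMSO library 2 or 3 (adjusted p = 0.102 and 0.0943) or control tumor 1 or 3 (0.0657 and 0.0639). That of Stat6 was lost with each library left out except DMSO library 1, midostaurin cell library 1 and midostaurin tumor 3 (adjusted p = 0.0526 to 0.162). In treated tumors 0 of the 9 were called by edgeR, 3 had an unadjusted p under 0.05 and DESeq2 called 2, Tyk2 and Jak2, where 19.9% of all genes had such a p and DESeq2 called 9.84%. Tyk2, a kinase of interferon and interleukin-13 receptors, measured 48.4 CPM in controls and 60.1 CPM in treated tumors (log2 0.32 ± 0.09, edgeR adjusted p = 0.135). Jak2 measured 56.9, 55.3 and 48.5 CPM in controls and 67.1, 119 and 67.2 in treated tumors (log2 0.66 ± 0.23, edgeR adjusted p = 0.183). Without midostaurin tumor 3 its difference was 0.34.

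Of 10 feedback and survival targets, all tested, 5 were called higher in control tumors than in DMSO cells: Bcl2l1, Mcl1, Socs1, Cish and Socs3. Again 24.5% of all genes were called higher there. The survival genes Bcl2l1 and Mcl1 rose by 0.56 ± 0.09 and 0.69 ± 0.14 on the log2 scale (edgeR adjusted p = 0.000866 and 0.0026), and Socs3 by 2.28 ± 0.61 (adjusted p = 0.0114). Cish, a STAT5-induced inhibitor of cytokine signaling, rose from 0.356 to 1.99 CPM (log2 2.48 ± 0.53, edgeR adjusted p = 0.00375), and Socs1 from 5.82 to 15.3 CPM (1.39 ± 0.29, adjusted p = 0.00311). In treated tumors 0 of the 10 were called by edgeR, 1 had an unadjusted p under 0.05 (19.9% of all genes) and DESeq2 called 0. Pim1, a kinase gene induced by STAT5, measured 48.8, 41.2 and 39.8 CPM in controls and 58.6, 118 and 49.5 in treated tumors, with no overlap (log2 0.80 ± 0.31, edgeR adjusted p = 0.222). Its difference was 0.34 without midostaurin tumor 3. Socs3, a brake on STAT3 signaling, measured 95.6, 75.8 and 66.4 CPM in controls and 102, 475 and 67.9 in treated tumors. Its drug difference of 1.44 ± 0.69 became 0.12 without midostaurin tumor 3.

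Of 7 interferon regulatory factors, 5 were called higher in control tumors than in DMSO cells, against 24.5% of all genes. Among the 5 were Irf8 of myeloid cells (8.46 to 45.6 CPM, log2 2.43 ± 0.17, edgeR adjusted p = 6.56e-06) and Irf1 (32.6 to 80.0 CPM, 1.30 ± 0.20, adjusted p = 0.000475). The others were Irf2 (0.76 ± 0.07, adjusted p = 3.77e-05), Irf3 (0.35 ± 0.09, adjusted p = 0.00855) and the lymphocyte factor Irf4 (adjusted p = 0.00153), which had 0 counts in all cell libraries and 9 to 36 in tumors, at least 7.81-fold higher in control tumors with 3 counts per library as the limit in cells. In treated tumors edgeR called 0 of the 7, 2 had an unadjusted p under 0.05 (19.9% of all genes) and DESeq2 called both (9.84%). Irf1, an interferon-induced activator, measured 98.8, 79.3 and 61.8 CPM in controls and 212, 185 and 128 CPM in treated tumors, with no overlap (log2 1.14 ± 0.23, edgeR adjusted p = 0.0907, DESeq2 6.18e-05). Irf8 measured 51.9, 40.9 and 43.9 CPM in controls and 31.7, 31.0 and 35.2 CPM in treated tumors (log2 -0.48 ± 0.11, edgeR adjusted p = 0.108, DESeq2 0.0111), beside the lower summed macrophage markers given above.

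Over these 35 pathway genes, 29 were tested in tumors with and without drug, and edgeR called 0, with 6 at an unadjusted p under 0.05 and 4 by DESeq2, where the shares of all genes were 19.9% and 9.84%. A share of 6 in 29 is near that background. Their log2 differences were above 0 for 26, with a median of 0.29 against -0.01 over all genes. Between control tumors and DMSO cells 16 of 29 were called higher and 0 lower, beside 4164 (24.5%) and 3337 of all 16965 genes. Their differences there were above 0 for 25 and below 0 for 4, with a median of 0.68 against 0.04 over all genes. In cells 28 were tested, and the drug called 0 by edgeR, with 0 at an unadjusted p under 0.05 and 0 by DESeq2. The smallest p-values of each list there belonged to Crlf2 (log2 0.14 ± 0.11), Il13ra1 (0.73 ± 1.07), Stat5a (0.07 ± 0.17), Stat5b (-0.20 ± 0.20), Cish (0.31 ± 0.52), Socs3 (0.17 ± 0.23), Irf2 (0.11 ± 0.08) and Irf8 (-0.15 ± 0.20). For the difference of the tumor and cell responses edgeR called 0 of 29, with 2 at an unadjusted p under 0.05 (6.08% of all genes), and DESeq2 called 1 (0.61%). That gene was Irf1, at 1.14 ± 0.27 (edgeR adjusted p = 0.444, DESeq2 0.0268), followed by Jak2 at 0.64 ± 0.28 (edgeR adjusted p = 0.813).

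The genes whose pattern over the 6 tumors was most like that of Il7, among 10404 genes compared, were Slc23a2 (Pearson r = 0.997), Utrn (0.996), Hace1 (0.995), Usp42 (0.994) and Fbxw11 (0.994). Slc23a2, a vitamin C transporter, measured 79.2 CPM in controls and 149 CPM in treated tumors. For Il15 they were Ccdc71l (0.994), Mindy3 (0.991), Psma2 (0.989), C1rl (0.989) and Psma3 (0.984). Within the set, Il7 and Il7r correlated at 0.923 and Il2rg and Il4ra at 0.959. These are descriptions over 6 libraries that share treatment groups and composition, and they carry no test.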

How the data were processed

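Cells and tumors each have 1 deposited table of whole-number counts by gene. The authors made these counts with FastQC 0.11.2, Bowtie2 2.3.4 and RSEM on the mm10 genome, per the submitters' processing notes. Gene annotation, strand setting and any rounding of RSEM estimates are not given in the sources used here. Symbols matched 99.7% of identifiers. Positions and lengths come from GENCODE M21 (GRCm38) and the promoter from RefSeq (GRCm38.p6), which held 6 of the 10 genes. All 12 value columns were mapped to a group; the table numbers the treated tumors 2 to 4 where the labels have 1 to 3, so tumor 4 carries no label number of its own.

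Tests used edgeR 4.0.16 (R 4.3.3): filterByExpr, TMM, quasi-likelihood F-test and Benjamini-Hochberg adjustment over all genes tested, called under 0.05. Each experiment had its own fit by group only. The tumor-to-cell comparison and the difference of drug responses came from 1 fit over 12 libraries. DESeq2 1.42.0 was an alternative. The procedure was tested on simulated data. Those data held the same fixed spread for all genes and no libraries that stood apart. That test therefore does not measure performance on libraries that spread as these do.

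The genes and lists were chosen with earlier results of these data known. Named pathway genes are the 2 smallest p of each list and comparison and any past the threshold, in the drug and tumor-to-cell comparisons, and for the difference of responses those 2 genes with an unadjusted p under 0.05. Irf7 in cells and the single marker genes of dendritic, fibroblast and lymphatic lists were named after their values were seen. A pathway gene that the rule names is not reported here. Genes most like a member needed a mean of 5 CPM and were compared on log2(CPM + 0.5).

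Replicate numbers recur between control and treated groups. In cells, deviations of same-numbered libraries from their group means correlated at 0.903, 0.721 and 0.704. Same-numbered cell libraries were therefore taken as pairs in the replicate block, from the data and not from the labels. The main fits left this pairing out, so their intervals in cells hold the spread between replicate numbers. In tumors, numbers 2 and 3 gave 0.153 and -0.186. Counts of same-numbered cell libraries differed by 4.52 to 5.30 times the variance of sampling noise and those of all other pairs by at least 15.9 times.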

Additional observations from a re-analysis of the deposited data

How the results depend on the processing

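The rise of 8 of the 9 genes from DMSO cells to control tumors kept direction and call in every alternative run. The call of Il7 between tumor groups did not hold in most. Genes of the set called there, 1 in the main setting, numbered 2 by DESeq2 and 0 without the low-count filter, in 1 fit over all 12 libraries, with the replicate block and without any 1 tumor. All genes called there, 7, numbered 1426 by DESeq2, 0 without the filter, 0 with the replicate block and 0 to 1 without any 1 tumor. For tumors the replicate block kept only tumors 2 and 3 of each group. The pairing and the smaller number of libraries cannot be told apart in that fit. In cells, where 0 genes were called, 1 fit over 12 libraries called 1, DESeq2 2 and the replicate block 8, none of them in the set. For the difference of responses, where 1 gene was called, DESeq2 called 99, the replicate block (added after the data were seen) 16, and fits without 1 library 1 to 6; of the set DESeq2 called 1. Pathway genes called between tumor groups, 0 in the main setting, numbered 4 by DESeq2. The cause of these shifts was not tested. The pairing in cells changed no call in the set.

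Leaving out 1 library turned the sign of some small differences. In cells the range was -0.44 to 0.32 for Il7, -0.07 to 1.10 for Il2rb, -0.60 to 0.19 for Il2rg (0.12 without DMSO library 3) and -0.15 to 0.25 for Il4ra; Il7 gave 0.15 without midostaurin library 3. In tumors it was -0.23 to 1.11 for Il2ra, -0.01 to 0.33 for Il2rg and -0.19 to 0.51 for Il4ra. Il7 between control tumors and DMSO cells passed with RLE size factors (1.02, adjusted p = 0.0417) and DESeq2, and without DMSO library 1 or midostaurin cell library 1 or 3. A CPM minimum of 0.5 and the longest transcript left the groups by source and the order in control tumors unchanged. Counts below about 20 per cell library limit what could be seen of Il2rg, Il2rb and Il15ra in culture.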
